A study of Mus musculus with 25 samples.

Results

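The 8 genes followed here mark dedifferentiated melanoma cells: the receptors Axl, Egfr, Ngfr and Gfra2, the water channel Aqp1, the ligand Wnt5a and the transcription factors Sox9 and Rxrg, and were measured in 25 mouse melanomas. They were taken by gene symbol as 8 of the 55450 genes in the count table, and all 8 passed the filter on low counts. The first comparisons were with tumours of mice given an isotype control antibody, and the level of each gene was set beside that of the pigment genes.

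Pigmented melanoma cells are held in a melanocyte state by the transcription factor MITF, which drives the enzymes and structural proteins of the melanosome. Melanoma cells can leave that state for a neural-crest-like one, known for NGFR, AQP1, GFRA2 and RXRG, or for an undifferentiated, invasive one, known for AXL, EGFR and WNT5A with low MITF and pigment genes. SOX9 is a factor of the early neural crest that is often set against the melanocyte factor SOX10. Most of these genes are also used by other cells of a tumour: Axl by macrophages, Aqp1 by endothelium and red cells, Egfr by fibroblasts and keratinocytes, and Sox9 by hair follicle cells.

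The tumours were grown from the mouse melanoma line B2905, also named M4, in C57BL/6 mice. Of 40 implanted mice, 30 were given anti-CTLA-4 antibody and 5 the isotype control IgG2b, from an average tumour size of 75 mm3. The other 5, untreated, were not analysed here. Both antibodies were dosed at 10 mg/kg, and CTLA-4 is a receptor that restrains T cells. By size at 10 to 11 days from the final dose, tumours were classed as shrinking (8 responders), holding their size (6 stable) or growing (6 non-responders). These tumours are fewer than the 30 treated mice, so the group sizes are not the outcome shares of all treated mice. The 5 IgG2b tumours are called controls. The labels used here do not give the age and sex of the mice. All tumours derive from 1 cell line, so p-values measure the spread between tumours of that line.

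Libraries held 8.76 to 34.3 M counts. Protein-coding genes took 82.9 to 89.2% of counts in the control, non-responder and stable libraries but 23.8 to 87.0% in responders (median 68.8%), so each difference that involves responders is accompanied by this difference in composition. Libraries are numbered group by group, so their order and the group cannot be told apart. In bulk tumour RNA, fewer cells of a type and less RNA per cell cannot be told apart either. The keratinocyte list (10 of 10 genes tested) had a summed level of 16.9 to 1322 counts per M scaled counts (CPM) for controls, 17.9 to 540 for non-responders, 26.0 to 543 for stable tumours and 6.25 to 2095 for responders, a wide spread within every group.

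The promoters of 2 pigment genes and 2 members are shown because the pigment genes fell where Axl and Egfr rose, and because MITF binds the E-box sequences CATGTG and CACGTG. Each line gives the 250 bases before the RefSeq start (GRCm38.p6), with motif matches in capitals. Those for Tyr (tyrosinase, chr7:87493513-87493762, minus strand), Dct (dopachrome tautomerase, chr14:118052247-118052496, minus strand), Axl (chr7:25788734-25788983, minus strand) and Egfr (chr11:16751953-16752202, plus strand) are:
Tyr: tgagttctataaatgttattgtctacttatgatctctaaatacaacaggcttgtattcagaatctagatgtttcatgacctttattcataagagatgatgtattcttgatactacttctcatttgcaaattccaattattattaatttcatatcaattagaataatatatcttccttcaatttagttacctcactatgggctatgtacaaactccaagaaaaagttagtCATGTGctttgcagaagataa
Dct: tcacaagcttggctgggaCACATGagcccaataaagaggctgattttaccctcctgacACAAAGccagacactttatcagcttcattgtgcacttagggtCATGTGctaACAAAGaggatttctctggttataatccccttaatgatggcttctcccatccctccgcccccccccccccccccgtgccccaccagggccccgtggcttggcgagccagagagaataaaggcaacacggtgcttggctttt
Axl: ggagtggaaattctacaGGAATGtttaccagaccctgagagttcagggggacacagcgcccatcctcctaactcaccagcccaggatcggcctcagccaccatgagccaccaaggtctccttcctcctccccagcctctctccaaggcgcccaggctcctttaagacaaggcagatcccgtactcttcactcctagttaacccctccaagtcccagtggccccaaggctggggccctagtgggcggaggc
Egfr: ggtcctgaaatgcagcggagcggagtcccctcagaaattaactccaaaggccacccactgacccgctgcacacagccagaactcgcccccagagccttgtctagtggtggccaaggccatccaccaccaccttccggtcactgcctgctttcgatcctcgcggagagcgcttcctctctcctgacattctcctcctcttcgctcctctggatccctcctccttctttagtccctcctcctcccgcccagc
Windows of 300 bases, with 250 before and 50 after the start, were searched on both strands for both E-box sequences, for the AP-1 sequence TGANTCA, for the TEAD sequence GGAATG and for the SOX sequence ACAAAG. The sequence CATGTG occurred in 6 of the 9 pigment genes that had a window and in none of the 5 members that had one (Ngfr, Aqp1, Axl, Egfr and Rxrg), against 14.2% of 32851 windows. Counted from the start, its first base was at -21 in Tyr and at -232 and -150 in Dct. CACGTG was in 3 of the 9 pigment genes and in none of the 5 members (7.15% of windows). A gene counts here if any of its windows held a match, whereas the percentages are per window. Trpm1, Rab27a and Rxrg had 2 windows each, and CACGTG was only in window 2 of Trpm1 and of Rab27a. ACAAAG was in 3 pigment genes, Dct among them, and in none of the members (18.7%). GGAATG was found in 1 member, Axl, at -233 (14.7%), and TGANTCA in none of the members (7.81%). In the line for Dct, the capitals that begin with CAC are CATGTG read on the other strand. A match is a stretch of letters and was not tested for binding.

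Axl, Egfr and Ngfr had higher levels in each of the anti-CTLA-4 groups than in controls. Against controls, 3 of the 8 members were called higher in responders (Axl, Ngfr and Egfr), 4 higher and 1 lower in stable tumours (Axl, Ngfr, Aqp1 and Egfr higher, Sox9 lower) and 3 higher in non-responders (Axl, Ngfr and Egfr). A gene is called at an adjusted p under 0.05 in edgeR's quasi-likelihood test. Of all 18031 tested genes, 65.0% were called in responders (36.1% higher, 28.9% lower), 41.8% in stable tumours (22.2% and 19.6%) and 13.9% in non-responders (10.6% and 3.29%), and the members' counts are to be read against these shares. The 3 comparisons share their controls and are not independent of each other. Between outcome groups only 1 member was called in each comparison: Gfra2 lower in responders than in non-responders, Gfra2 lower in stable tumours than in non-responders, and Sox9 higher in responders than in stable tumours. The background was 48.9% of genes called in the first (25.2% higher, 23.8% lower), 14.9% in the second (7.08% and 7.86%) and 38.2% in the third (20.5% and 17.8%). The median log2 fold change of the 8 was 0.51 in responders, 0.71 in stable tumours and 0.72 in non-responders over controls, against 0.16, 0.02 and 0.04 for all genes. A refit on the 14881 tested protein-coding genes alone had a responder median of 0.04 over controls. This median covers another gene set than the 0.16 of all genes. The refit changed no direction of a member against controls.

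**Figure D1:**
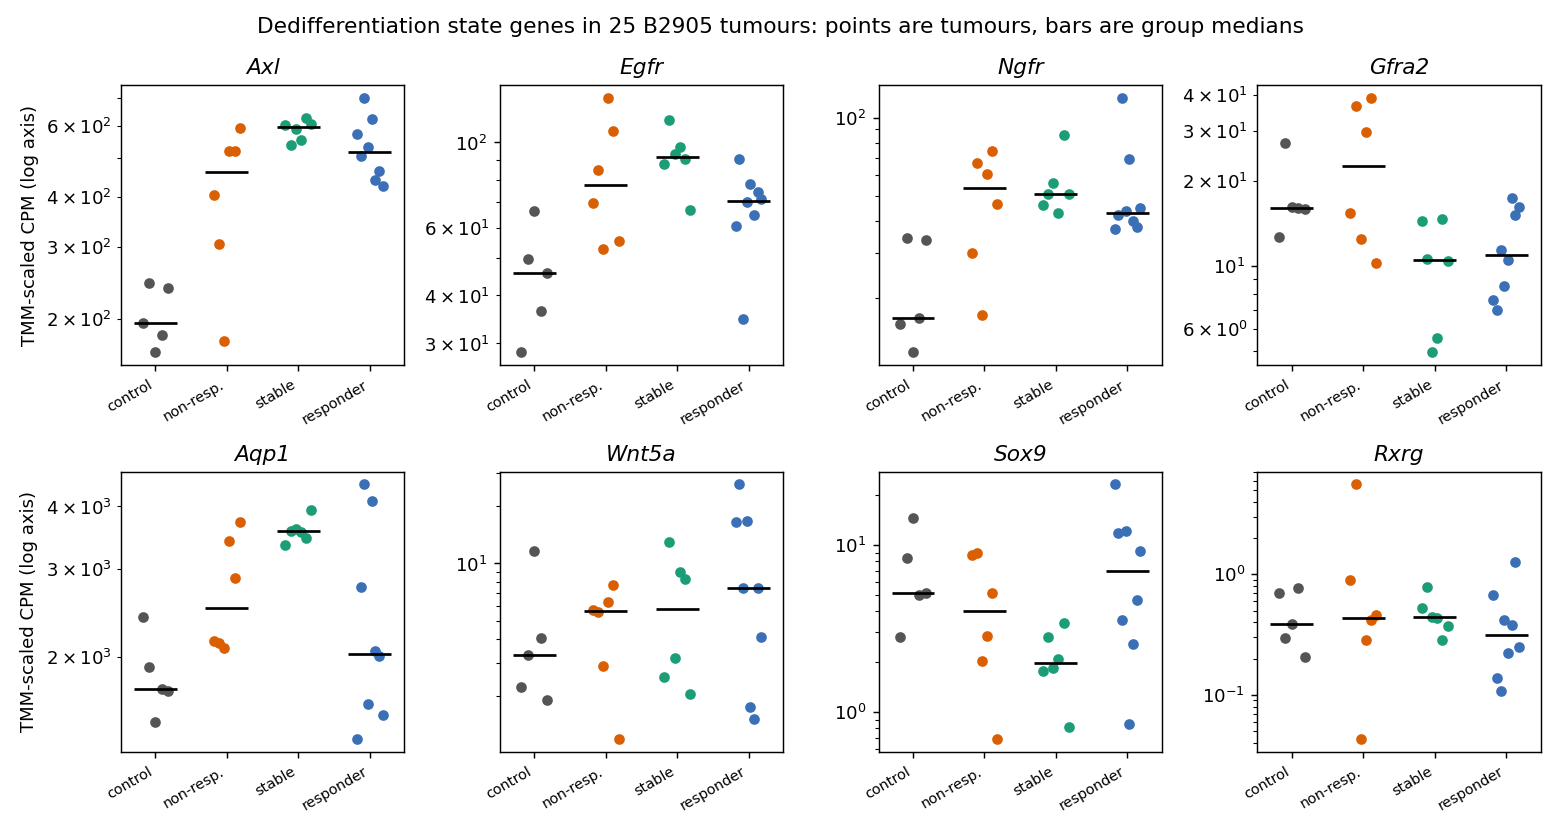
TMM-scaled CPM of each of the 8 genes (log axis, with a range of its own for each gene) in 25 tumours by group; each point is 1 tumour and the bar is the group median. Axl, and to a lesser degree Ngfr, sit lowest in the 5 controls, while Sox9, Wnt5a and Rxrg spread widely within groups.

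Axl (ENSMUSG00000002602.16, GRCm38 chr7:25757273-25788705, minus strand) encodes a receptor tyrosine kinase for GAS6. Its level in controls was 195, 244, 165, 182 and 239 CPM. Non-responders ranged from 176 through a median of 461 to 592 CPM, stable tumours from 538 through 595 to 625, and responders from 426 through 517 to 703. All 6 stable tumours and all 8 responders were above every control, while 5 of 6 non-responders were, with non-responder 3 at 176 CPM among the controls. The log2 fold change over controls was 1.38 in responders (SE 0.21, adjusted p = 6.51e-06), 1.51 in stable tumours (SE 0.22, adjusted p = 7.29e-06) and 1.03 in non-responders (SE 0.21, adjusted p = 0.0021). Of all genes, 30.0% had groups without overlap in responders against controls, 35.5% in stable tumours and 4.08% in non-responders. Between outcome groups such genes made up 5.01% in responders and 5.01% in stable tumours against non-responders, and 0.715% in responders against stable tumours. In means, controls stood at 205 ± 35.0 CPM (SD, n = 5), non-responders at 419 ± 156 (n = 6), responders at 532 ± 95.6 (n = 8) and stable tumours at 586 ± 33.2 (n = 6). Responders and stable tumours overlapped (log2 difference -0.14, adjusted p = 0.58), as did responders and non-responders (0.34, adjusted p = 0.13). The latter passed the threshold without non-responder 6 (0.47, adjusted p = 0.047) and in limma on log2(RPKM + 1) (0.50, adjusted p = 0.028), and stable tumours against non-responders likewise without non-responder 6 (0.61, adjusted p = 0.034, from 0.48 and 0.11).

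Gas6 and Pros1 were both expressed. Gas6, which encodes the high-affinity ligand of AXL, had 49.6 ± 15.7 CPM (controls), 73.7 ± 21.6 (non-responders), 130 ± 46.2 (stable tumours) and 67.1 ± 37.1 (responders, all SD). It rose in stable tumours over controls (log2 fold change 1.40, SE 0.33, adjusted p = 0.0015) and was lower in responders than in stable tumours (-0.96, SE 0.29, adjusted p = 0.013). Pros1, which encodes protein S, fell in responders against controls (-1.08, SE 0.23, adjusted p = 0.00029), non-responders (-0.76, adjusted p = 0.007) and stable tumours (-0.70, adjusted p = 0.017). Macrophages also make Axl and Gas6. Of 10 macrophage genes, 7 were higher and 1 lower in responders than in controls, 8 and 0 in stable tumours, and 6 and 0 in non-responders. The summed macrophage level was 633 to 1067 CPM (controls), 830 to 2521 (non-responders), 2253 to 3556 (stable tumours) and 1042 to 3121 (responders), with none of the 10 genes at 0 in any tumour. Its part in the level of Axl was not tested.

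The balance of Axl to Mitf separated controls from nearly all treated tumours. Mitf, the master factor of the melanocyte lineage, had 453 ± 113 CPM (controls), 212 ± 147 (non-responders), 89.8 ± 4.78 (stable tumours) and 81.2 ± 15.6 (responders; SD). The log2 ratio of Axl to Mitf was -1.51, -0.64, -1.03, -1.70 and -0.75 in the 5 controls, so Mitf exceeded Axl in CPM in each of them. Stable tumours lay within a narrow band from 2.55 to 2.86 (median 2.71) and responders from 1.99 to 3.54 (median 2.83), where Axl exceeded Mitf. Non-responders ran from -1.42 through a median of 1.62 to 2.5, from the level of controls to nearly that of stable tumours.

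The mean ratio was -1.13 ± 0.46 for controls, 1.13 ± 1.56 for non-responders, 2.70 ± 0.11 for stable tumours and 2.71 ± 0.47 for responders (SD; n = 5, 6, 6 and 8). By two-sided exact permutation tests, adjusted over 6 comparisons, responders exceeded controls by 3.84 (exact p = 0.00078, the smallest the design allows, adjusted p = 0.0043; 8 of 8 above every control). Stable tumours exceeded controls by 3.83 (exact p = 0.0022, the smallest possible, adjusted p = 0.0043; 6 of 6) and non-responders by 1.58 (exact p = 0.0022, adjusted p = 0.0043; 6 of 6 above every non-responder). Responders exceeded non-responders by 1.59 (exact p = 0.0063, adjusted p = 0.0095; 5 of 8 above every non-responder). Non-responders exceeded controls by 2.25 (exact p = 0.019, adjusted p = 0.023; 5 of 6 above every control). Responders and stable tumours differed by 0.01 (exact p = 0.96).

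**Figure D2:**
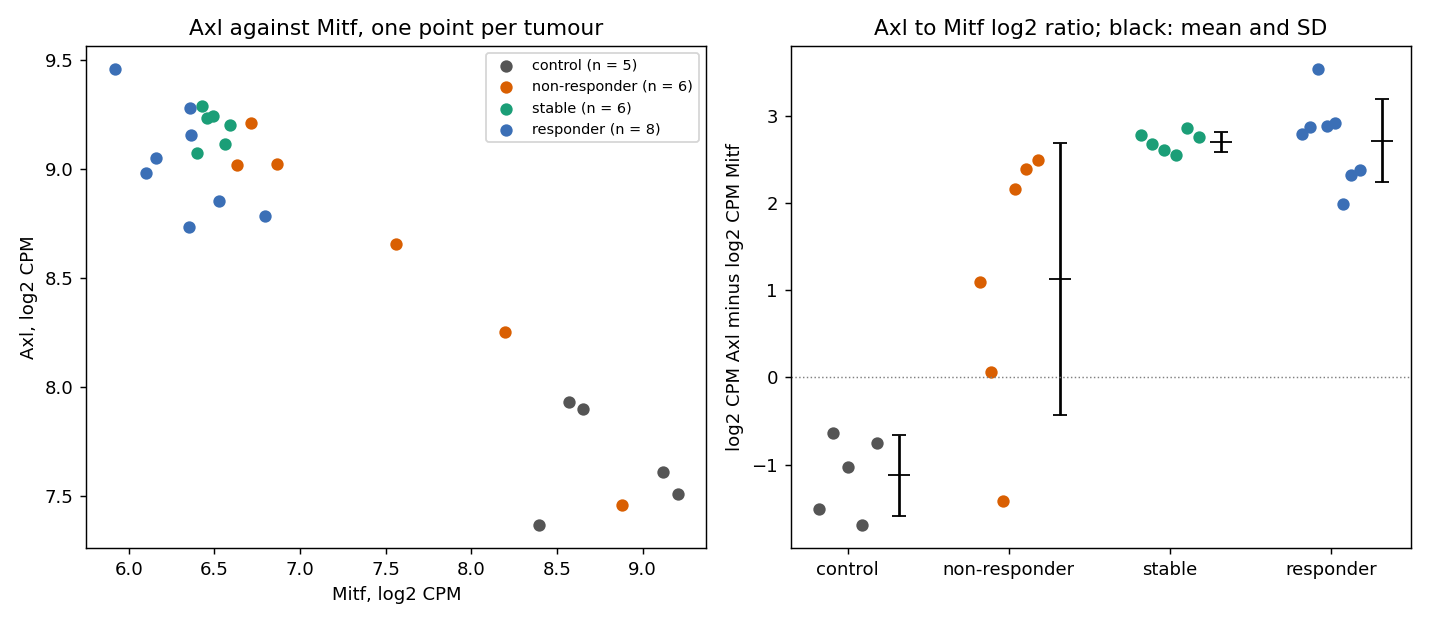
Left, log2 CPM of Axl against log2 CPM of Mitf in 25 tumours, coloured by group; right, the log2 ratio of Axl to Mitf per tumour with the group mean and SD in black. The 5 controls lie below 0 on the right, the 6 stable tumours between 2.55 and 2.86, and the 6 non-responders spread from -1.42 to 2.5.

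Egfr (ENSMUSG00000020122.16, chr11:16752203-16918158, plus strand) encodes the epidermal growth factor receptor. Control tumours had 28.4, 49.7, 66.3, 36.5 and 45.6 CPM. Stable tumours had 66.8 to 114 CPM (median 91.9), above every control, the nearest of which had 66.3. Non-responders had 53.0 to 131 CPM (median 77.4), and responders 34.7 to 90.5 (median 70.5), with 4 of 6 and 5 of 8 above every control. The log2 fold change over controls was 1.02 in stable tumours (SE 0.24, adjusted p = 0.0015), 0.88 in non-responders (SE 0.24, adjusted p = 0.016) and 0.59 in responders (SE 0.23, adjusted p = 0.028). The call in responders was lost without responder 2 (0.52, adjusted p = 0.054), control 1 (0.45, adjusted p = 0.10) or control 4 (0.51, adjusted p = 0.078), with no low-count filter (0.40, adjusted p = 0.15) and with the protein-coding share in the model (0.63, adjusted p = 0.085). The log2 share in the model (0.63, adjusted p = 0.051) and a fit of those groups alone (0.49, adjusted p = 0.065) lost it too. That in non-responders was lost without non-responder 4 (0.71, adjusted p = 0.057), control 1 (0.75, adjusted p = 0.060) or control 4 (0.81, adjusted p = 0.055). Of the EGFR ligands, Hbegf was lower in responders than in non-responders (-0.42, SE 0.16, adjusted p = 0.032), with means of 24.4 and 32.8 CPM. Egfr overlaps the antisense gene Egfros, which had a mean of 0.013 CPM against 72.9 for Egfr.

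Fibroblasts carry Egfr as well. Against controls, 5 of 10 fibroblast genes were higher in responders, 8 in stable tumours and 6 in non-responders, and none of them lower. Their summed level was 3661 to 6903 CPM (controls), 6587 to 14797 (non-responders), 8012 to 17405 (stable tumours) and 7662 to 16436 (responders), and no fibroblast gene was at 0 in any tumour. The part of these cells in the level of Egfr was not tested.

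Ngfr (ENSMUSG00000000120.6, chr11:95568818-95587735, minus strand) encodes the low-affinity neurotrophin receptor, a marker of neural crest stem cells and of Schwann cells. Controls had 15.9, 34.3, 12.4, 16.9 and 33.6 CPM. Responders had 37.3 to 119 CPM (median 42.7) and stable tumours 42.9 to 86.0 (median 50.7), above every control in 8 of 8 and 6 of 6. Non-responders had 17.2 to 74.2 CPM (median 53.5), above every control in 4 of 6. The log2 fold change over controls was 1.27 in responders (SE 0.35, adjusted p = 0.0030), 1.29 in stable tumours (SE 0.37, adjusted p = 0.0060) and 1.12 in non-responders (SE 0.36, adjusted p = 0.041). The call in non-responders was lost on leaving out non-responder 2, 4, 5 or 6 (1.02, 1.06, 0.97 and 1.14, adjusted p = 0.073, 0.087, 0.11 and 0.060) or control 1, 3 or 4 (1.02, 0.97 and 1.03, adjusted p = 0.11, 0.10 and 0.11), and with no low-count filter (1.03, adjusted p = 0.11). It was also lost when the fit held no other groups (1.08, adjusted p = 0.090) and in unfiltered limma on log2(RPKM + 1) (0.97, adjusted p = 0.058). Between outcome groups Ngfr was not called, with log2 differences of 0.14, -0.03 and 0.17 for responders over non-responders, responders over stable tumours and stable tumours over non-responders.

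Bdnf, a neurotrophin bound by NGFR, rose beside it. Its level was 4.46 ± 1.42 CPM (controls), 9.80 ± 3.22 (non-responders), 17.9 ± 3.84 (stable tumours) and 19.3 ± 13.3 (responders; SD). The log2 fold change over controls was 2.11 in responders (SE 0.35, adjusted p = 2e-05), 2.00 in stable tumours (SE 0.36, adjusted p = 9.5e-05) and 1.14 in non-responders (SE 0.35, adjusted p = 0.032), and responders exceeded non-responders by 0.98 (SE 0.31, adjusted p = 0.013). Sort1, the sortilin co-receptor, was lower than in controls in responders (-1.43, SE 0.17, adjusted p = 3.32e-07) and stable tumours (-1.12, SE 0.18, adjusted p = 2.55e-05). Of 10 Schwann genes, 3 were higher and 4 lower in responders than in controls, 2 and 2 in stable tumours, and 1 and 1 in non-responders. Their summed level was 664 to 894 CPM (controls), 638 to 781 (non-responders), 375 to 645 (stable tumours) and 257 to 612 (responders). None of the 10 genes was at 0 in any tumour. The part of Schwann cells in the level of Ngfr was not tested.

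Gfra2 (ENSMUSG00000022103.10, chr14:70890120-70979838, plus strand) encodes the neurturin co-receptor and had its highest median in non-responders. Controls had 12.7, 27.3, 16.2, 16.0 and 15.9 CPM. Non-responders had 10.3 to 39.3 CPM (median 22.6), with tumours 2, 4 and 5 above every other tumour of the study. Stable tumours had 4.96 to 14.7 CPM (median 10.5) and responders 7.00 to 17.4 (median 10.9). Every group overlapped every other, but 3 of 8 responders and 2 of 6 stable tumours were below every non-responder. Gfra2 was lower than in non-responders by 1.03 on the log2 scale in responders (log2 fold change -1.03, SE 0.31, adjusted p = 0.0098) and by 1.25 in stable tumours (-1.25, SE 0.34, adjusted p = 0.016). The first call was lost with the protein-coding share (-0.89, adjusted p = 0.16) or its log2 (-0.88, adjusted p = 0.088) in the model. It was also lost in limma on log2(RPKM + 0.1) (-0.79, adjusted p = 0.054) and in unfiltered limma on log2(RPKM + 1) (-0.67, adjusted p = 0.061). The second was lost without non-responder 2 (-1.08, adjusted p = 0.053) and in a fit of those groups alone (-1.24, adjusted p = 0.051). Against controls the log2 fold change was -0.58 in responders (adjusted p = 0.12), -0.80 in stable tumours (adjusted p = 0.070) and 0.45 in non-responders (adjusted p = 0.42). For stable tumours this passed the threshold without stable 1 (-0.93, adjusted p = 0.049) or stable 5 (-0.94, adjusted p = 0.046), in DESeq2 (-0.85, adjusted p = 0.037), with no low-count filter (-0.95, adjusted p = 0.044) and when the fit held no other groups (-0.79, adjusted p = 0.041). For responders it passed in the last of these settings (-0.68, adjusted p = 0.023).

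The sister receptor Gfra1, which binds GDNF, fell more widely. It was lower in responders than in controls (log2 fold change -1.82, SE 0.25, adjusted p = 1.7e-06) and non-responders (-1.33, SE 0.24, adjusted p = 0.00021), and lower in stable tumours than in controls (-1.63, SE 0.27, adjusted p = 3.2e-05) and non-responders (-1.14, SE 0.26, adjusted p = 0.0063). Its mean was 204 CPM (controls), 145 (non-responders), 65.8 (stable tumours) and 57.4 (responders). Gdnf itself lay at 18.7 to 20.9 CPM in the group means and was not called in any comparison. Ret, the kinase that both receptors use, had group means of 1.11 to 2.90 CPM and was not called either. Nrtn, the neurturin gene, was at most 1.00 CPM in any tumour.

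Aqp1 (ENSMUSG00000004655.5, chr6:55336432-55348555, plus strand), a water channel, was the most abundant member. Controls had 2401, 1914, 1484, 1725 and 1709 CPM. Stable tumours had 3344 to 3929 CPM (median 3567), above every control, and 0.95 higher on the log2 scale (SE 0.27, adjusted p = 0.0060). Non-responders had 2086 to 3723 CPM (median 2512), with a log2 fold change of 0.56 over controls (adjusted p = 0.17). Responders had 1372 to 4427 CPM (median 2034), from below the lowest control to above the highest stable tumour, with responders 3 and 5 at 4427 and 4097 (log2 fold change 0.43 over controls, adjusted p = 0.14). The responder difference from controls passed the threshold with the protein-coding share in the model (0.95, adjusted p = 0.0039) and without responders 1 and 4, the libraries with the lowest protein-coding share (0.62, adjusted p = 0.031). Responders were lower than stable tumours by 0.53 on the log2 scale (adjusted p = 0.078), a difference called without responder 3 (-0.70, adjusted p = 0.015) or responder 5 (-0.67, adjusted p = 0.017).

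Endothelium and red cells also hold Aqp1. Of 10 endothelial genes, 1 was higher and 7 lower in responders than in controls, 1 and 4 in stable tumours, and 1 and 0 in non-responders. Their summed level was 194 to 295 CPM (controls), 218 to 410 (non-responders), 139 to 234 (stable tumours) and 100 to 176 (responders), and none was at 0 in any tumour. All 5 tested red-cell genes were lower than in controls in each anti-CTLA-4 group, with a sum of 49.9 to 460 CPM (controls), 33.3 to 116 (non-responders), 23.2 to 38.1 (stable tumours) and 8.45 to 22.9 (responders). The part of these cells in the level of Aqp1 was not tested.

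Wnt5a (ENSMUSG00000021994.15, chr14:28504750-28527448, plus strand) encodes a ligand of non-canonical Wnt signalling. Controls had 2.23, 3.28, 11.7, 4.05 and 1.91 CPM. Non-responders had 1.18 to 7.74 CPM (median 5.63), stable tumours 2.05 to 13.0 (median 5.76) and responders 1.51 to 26.1 (median 7.44). No comparison was called and all groups overlapped. The largest difference, responders over controls, was 1.13 on the log2 scale (SE 0.64, adjusted p = 0.13), and it passed the threshold without control 3, the control with 11.7 CPM (1.80, adjusted p = 0.025). Wnt5a overlaps the antisense gene Gm2670, which had a mean of 0.071 CPM against 6.88.

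Ror1 and Ror2, which encode receptors for WNT5A, rose over controls while the ligand was not called. Other WNT receptors are not given here. Ror1 had 4.26 ± 0.80 CPM (controls), 8.41 ± 2.45 (non-responders), 10.5 ± 1.74 (stable tumours) and 8.02 ± 2.37 (responders; SD), with log2 fold changes over controls of 0.98 (SE 0.22, adjusted p = 0.0042), 1.31 (SE 0.22, adjusted p = 5.3e-05) and 0.92 (SE 0.21, adjusted p = 0.00066). Ror2 had 4.16 ± 1.56 CPM (controls), 8.13 ± 3.43 (non-responders), 7.48 ± 1.76 (stable tumours) and 7.90 ± 2.18 (responders), with log2 fold changes of 0.97 (adjusted p = 0.026), 0.85 (adjusted p = 0.020) and 0.93 (adjusted p = 0.0053). Neither was called between outcome groups.

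Sox9 (ENSMUSG00000000567.5, chr11:112782224-112787760, plus strand) was low and uneven. Controls had 2.80, 8.36, 14.4, 5.01 and 5.17 CPM, and non-responders 0.69 to 8.94 (median 4.00). Stable tumours had 0.81 to 3.40 CPM (median 1.96), with 4 of 6 below every control. Responders had 0.85 to 23.0 CPM (median 6.96), with 6 of 8 above every stable tumour. Sox9 was lower in stable tumours than in controls (log2 fold change -1.74, SE 0.65, adjusted p = 0.033) and higher in responders than in stable tumours (1.96, SE 0.61, adjusted p = 0.016).

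Neither Sox9 call held under every setting. The difference of responders from stable tumours stayed called on leaving out any 1 tumour (1.59 to 2.15), but was 0.53 with the protein-coding share in the model (adjusted p = 0.76) and 1.34 without responders 1 and 4 (adjusted p = 0.094). The difference of stable tumours from controls was not called without stable 1, 3 or 6 (-1.70, -1.71 and -1.58, adjusted p = 0.058, 0.057 and 0.068), without control 2 or 3 (-1.68 and -1.32, adjusted p = 0.055 and 0.12), or in limma on log2(RPKM + 1) (-0.73, adjusted p = 0.081). Keratinocyte genes moved with it from tumour to tumour, as given below with the other lists.

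Rxrg (ENSMUSG00000015843.10, chr1:167598384-167639623, plus strand), which encodes retinoid X receptor gamma, was the lowest member. Controls had 0.70, 0.29, 0.39, 0.77 and 0.21 CPM, stable tumours 0.29 to 0.78 and responders 0.11 to 1.27. Non-responders had 0.04 to 5.57 CPM (median 0.44), where 1 tumour, non-responder 2, stood at 5.57 and the other 5 at or under 0.89. No comparison was called. The log2 fold change of responders over non-responders was -1.66 (SE 0.70, adjusted p = 0.053) with that tumour, and between -2.19 and -0.004 on leaving out 1 tumour at a time. It passed the threshold without responder 7 (-2.19, adjusted p = 0.018) or non-responder 3, 4, 5 or 6 (-1.91, -1.86, -1.84 and -1.83, adjusted p = 0.022, 0.035, 0.037 and 0.040), and in DESeq2 (-1.64, adjusted p = 0.042). Each of these settings kept non-responder 2. Without that tumour, the sign reversed in stable tumours over non-responders (0.23, from -1.42) and in non-responders over controls (-0.24, from 1.41). Rxra, the widely expressed family member, was higher than in controls in responders (0.41, SE 0.09, adjusted p = 0.00068), stable tumours (0.54, SE 0.10, adjusted p = 0.00013) and non-responders (0.33, SE 0.10, adjusted p = 0.027).

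On the deposited RPKM scale, which divides by gene length, the members kept nearly 1 order in the 4 groups. In controls the mean level was 586 ± 99.3 RPKM for Aqp1, 31.5 ± 5.44 for Axl, 5.71 ± 2.67 for Ngfr, 4.87 ± 1.72 for Egfr, 4.68 ± 1.52 for Gfra2, 1.56 ± 1.01 for Sox9, 0.82 ± 0.81 for Wnt5a and 0.18 ± 0.08 for Rxrg (SD, n = 5). Ngfr, Egfr and Gfra2 did not differ beyond their spread there, nor did Sox9 and Wnt5a. In responders the means were 818 ± 339 for Aqp1, 88.7 ± 9.32 for Axl, 14.0 ± 6.23 for Ngfr, 8.12 ± 1.98 for Egfr, 3.44 ± 1.39 for Gfra2, 1.92 ± 1.54 for Sox9, 1.91 ± 1.62 for Wnt5a and 0.17 ± 0.14 for Rxrg (SD, n = 8). In stable tumours Wnt5a (1.06 ± 0.80) came before Sox9 (0.47 ± 0.19), the only change of order of the group means. Ordered by group, Axl was lowest in controls (31.5), then in non-responders (66.9 ± 24.7), with stable tumours (87.3 ± 6.35) and responders (88.7) not apart beyond their spread.

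The rise of Axl, Egfr and Ngfr stood beside a far larger fall of pigment genes. The 14 pigment genes had a summed level of 11037 to 18554 CPM in controls, 449 to 592 in stable tumours and 371 to 921 in responders. Non-responders had sums of 743 to 14976 CPM (median 2710), from a value within the control range to values near the other groups. Against controls, 13 of 14 were lower in responders (median log2 fold change -5.41), 14 of 14 in stable tumours (-5.68) and 2 of 14 in non-responders (-1.43). For non-responders the calls differed between methods, whose model and scale were not varied separately. Limma on log2(RPKM + 1) called Tyr (-3.08, adjusted p = 0.0053), Dct (-3.32, adjusted p = 0.038), Mlana (-2.60, adjusted p = 0.012) and Pmel (-2.71, adjusted p = 0.018) lower than in controls. In edgeR the same 4 genes had -1.92, -1.67, -1.79 and -1.51 and were not called. Without non-responder 3, Mlana was called in edgeR too (-2.46, adjusted p = 0.019). Against non-responders, 12 were lower in responders (-4.13) and 13 in stable tumours (-3.85), while between responders and stable tumours 1 was higher. Tyr fell by 6.87 on the log2 scale in responders (SE 1.02, adjusted p = 6.4e-06) and by 7.62 in stable tumours (SE 1.19, adjusted p = 2.2e-05) against controls, while Dct had log2 fold changes of -6.90 (SE 1.16, adjusted p = 2.4e-05) and -8.26 (SE 1.39, adjusted p = 4.9e-05). Tyr had 905 ± 155 CPM (controls), 239 ± 260 (non-responders), 4.58 ± 3.29 (stable tumours) and 7.75 ± 6.99 (responders; SD).

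The regulators of the lineage moved less than the pigment genes. Of 11, 5 were lower in responders than in controls (Mitf, Sox10, Pax3, Mc1r and Ednrb) and 2 higher (Tfap2a and Lef1), 4 were lower in stable tumours, and only Mitf was lower in non-responders. Mitf fell by 2.48 on the log2 scale in responders (SE 0.27, adjusted p = 2.1e-07), by 2.34 in stable tumours (SE 0.30, adjusted p = 2.5e-06) and by 1.09 in non-responders (SE 0.29, adjusted p = 0.014). The call in non-responders was lost when the fit held no other groups (-1.13, adjusted p = 0.086). Lef1, a mediator of Wnt signalling, was higher in responders than in controls (1.51, SE 0.41, adjusted p = 0.0025) and non-responders (1.52, SE 0.38, adjusted p = 0.0029).

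**Figure D3:**
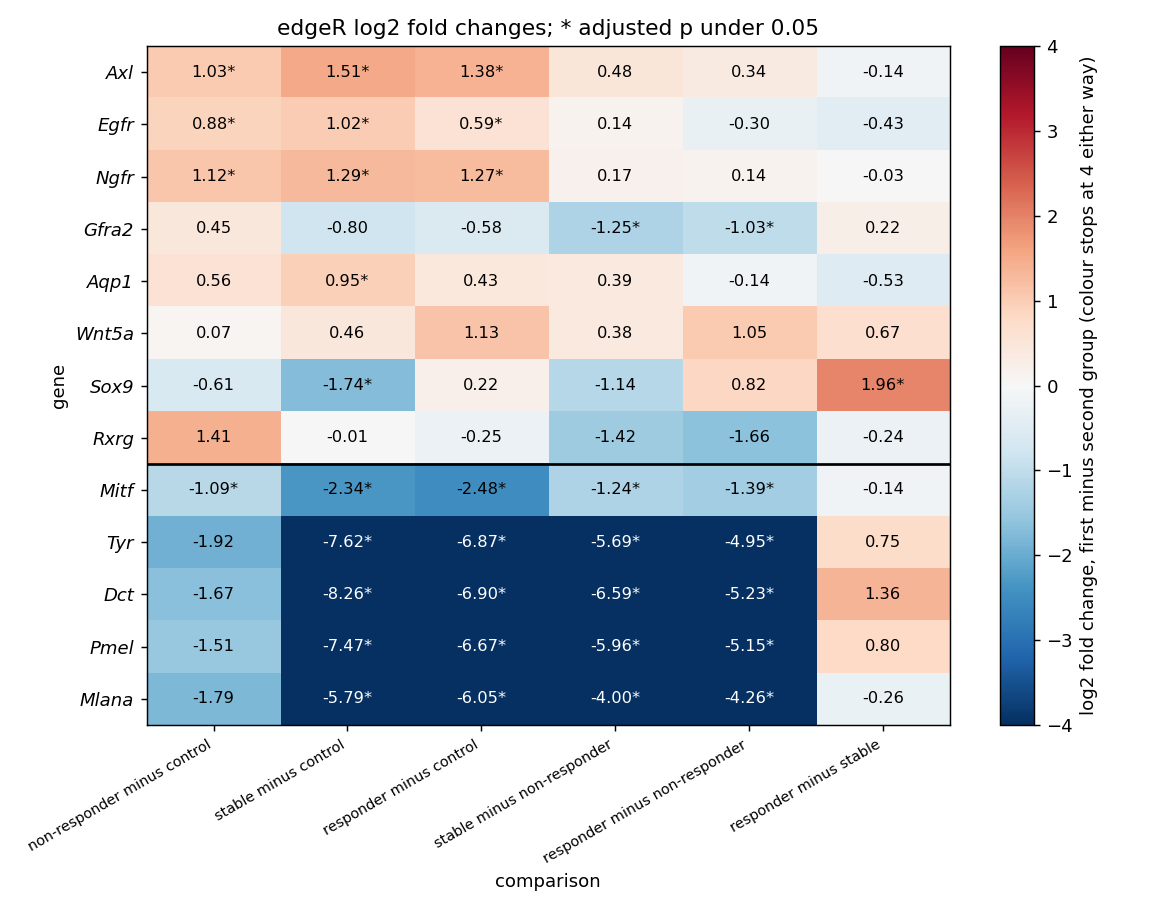
edgeR log2 fold changes of the 8 genes (above the line) and of Mitf and 4 pigment genes (below it) in 6 comparisons, each first minus second group; an asterisk marks an adjusted p under 0.05 and the colour stops at 4 either way. Axl, Egfr and Ngfr are positive with asterisks in the 3 control columns, where Tyr, Dct, Pmel and Mlana reach -8.26 and carry no asterisk for non-responders in this test (limma on log2(RPKM + 1) called all 4).

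Other genes of the neural-crest-like state did not rise together. Of 21 such genes, 19 were tested. Against controls, 6 were higher and 7 lower in responders, 4 and 7 in stable tumours, and 3 and 0 in non-responders, with median log2 fold changes of 0.00, 0.23 and 0.24. Nes, which encodes the intermediate filament nestin, rose by 1.01 in responders (SE 0.24, adjusted p = 0.00084) and 1.32 in stable tumours (SE 0.25, adjusted p = 0.00018) over controls on the log2 scale. Cadm1, a cell adhesion gene, was lower in responders than in non-responders (-1.16, SE 0.22, adjusted p = 0.00040), as were 5 others (Gfra1, Sort1, Erbb3, Id3 and Pou3f2), with Nes the 1 higher.

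Genes of the invasive state moved both ways, and no test set them apart from all genes, which also leaned higher against controls in the shares given above. Of 31, 13 were higher and 8 lower in responders (median 0.52), 11 and 6 in stable tumours (0.24), and 5 and 1 in non-responders (0.22). Inhba, a subunit of activin A, rose by 3.28 in responders (SE 0.49, adjusted p = 5.7e-06) and 3.51 in stable tumours (SE 0.50, adjusted p = 7.6e-06). Thbs1, the matrix protein thrombospondin 1, rose by 2.61 (SE 0.42, adjusted p = 1.3e-05) and 3.15 (SE 0.44, adjusted p = 5.8e-06). Both were also higher in responders than in non-responders, by 1.99 (adjusted p = 0.00083) and 1.42 (adjusted p = 0.0035). Met, the receptor for hepatocyte growth factor, went the other way, with -3.48 in responders (SE 0.47, adjusted p = 1.6e-06) and -3.42 in stable tumours (SE 0.52, adjusted p = 1.3e-05) against controls. Cdh2, which encodes N-cadherin, was lower in responders than in non-responders (-0.67, SE 0.24, adjusted p = 0.023). Of 15 genes listed as ligands of the members' receptors, Pros1 among them, 10 were tested. Of these, 2 were higher and 1 lower in both responders and stable tumours than in controls.

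Among responders and among non-responders, tumours with a lower mean log2 level of the pigment genes had more Axl. The log2 CPM of each member was compared with the mean log2 CPM of 8 marker lists and with the protein-coding share over 25 tumours, after removing the group means, which made 72 relations with permutation p-values adjusted over all of them. For Axl and the pigment list, Pearson's r was -0.82 (permutation within groups, adjusted p = 0.00036, raw p = 1e-05, the smallest that 100000 draws can give) and Spearman's rho -0.78 (adjusted p = 0.0032). Without controls 1 and 5, r was -0.83. They were farthest from the median pigment level before the group means were removed, a rule used for every relation below. After removal they lay at 0.42 and 0.15, against -2.26 in responder 3 and 2.20 in non-responder 3. Leaving them out therefore says little about the tumours farthest from their group mean. On leaving out each tumour in turn, r was -0.85 to -0.78 and stayed called. By group, r was -0.92 in the 6 non-responders (exact p = 0.0028), -0.94 in the 8 responders (exact p = 0.00067) and -0.30 in the 6 stable tumours (exact p = 0.62). The controls were not taken alone. Of the 14 pigment genes, 4 (Gpr143, Mlana, Slc45a2 and Tyr) were at 0 in some tumour, and such low values weigh heavily in a mean of log2 CPM. Responder 3 had the lowest mean (0.60) but a summed pigment level of 508 CPM, above the 371 CPM of responder 5 (mean 1.68). Ngfr and Aqp1 had r of -0.59 each with the pigment list (adjusted permutation p = 0.048), with rho of -0.53 and -0.56 (adjusted permutation p = 0.12). These 2 relations lost their call on leaving out any of 16 and 15 tumours.

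Sox9 followed the keratinocyte list, with r = 0.82 (adjusted permutation p = 0.00036) and rho = 0.83 (adjusted permutation p = 0.00072), or r = 0.81 without responders 5 and 8. The correlation was 0.84 in responders (exact p = 0.0083), 0.81 in non-responders (exact p = 0.071) and 0.69 in stable tumours (exact p = 0.11). Responder 5 had 0.85 CPM of Sox9 and a keratinocyte sum of 6.25 CPM, while responder 1 had 23.0 and 1663 CPM. Wnt5a had r = 0.61 with the same list (rho = 0.60, adjusted permutation p = 0.040 and 0.037; r = 0.67 without responders 5 and 8), a call lost on leaving out any of 8 tumours, with r from 0.54 to 0.61. Of the 10 keratinocyte genes, 5 (Dsg3, Krt1, Krt10, Krt14 and Krt15) were at 0 in some tumour and none was called against controls in any group. Whether skin cells supply the Sox9 RNA was not tested.

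Egfr rose and fell with the fibroblast list (r = 0.62, rho = 0.72, adjusted permutation p = 0.017 and 0.0043; r = 0.67 without responder 1 and control 1) and the endothelial list (r = 0.65, rho = 0.63, adjusted permutation p = 0.017 and 0.028; r = 0.61 without responder 1 and non-responder 4). With fibroblast genes r was 0.96 in non-responders (exact p = 0.0042), 0.86 in stable tumours (exact p = 0.033) and 0.43 in responders (exact p = 0.29). Aqp1 followed the macrophage list (r = 0.69, rho = 0.71, adjusted permutation p = 0.017 and 0.011; r = 0.61 without responder 5 and stable 3). It did so in non-responders (r = 0.94, exact p = 0.0042) and responders (r = 0.80, exact p = 0.0081), and not in stable tumours (r = -0.10, exact p = 0.88). Of the 72 relations, 12 passed on Pearson's r, and these 6 of them also on rho. With the protein-coding share removed as well, Aqp1 with macrophage genes (r = 0.57, adjusted permutation p = 0.070) and Wnt5a with keratinocyte genes (r = 0.52, adjusted permutation p = 0.062) were not called.

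The remaining relations past the threshold on Pearson's r were Ngfr with Schwann genes (0.63, adjusted permutation p = 0.017, rho = 0.48), Aqp1 with keratinocyte genes (-0.72, adjusted permutation p = 0.017, rho = -0.56), and Axl with macrophage genes (0.58, adjusted permutation p = 0.043, rho = 0.53) and T cell genes (0.72, adjusted permutation p = 0.043, rho = 0.51). The relations of Axl with macrophage and T cell genes lost their call on leaving out any of 11 and 10 tumours, and that of Ngfr with Schwann genes without non-responder 3 (0.55, adjusted permutation p = 0.057). On log2(RPKM + 1), the 6 relations that passed on Pearson's r alone were not called (adjusted permutation p = 0.051 to 0.24). All 8 T cell genes were higher than in controls in each anti-CTLA-4 group, with a summed level of 9.23 to 27.6 CPM for controls, 24.0 to 200 for non-responders, 149 to 225 for stable tumours and 87.3 to 253 for responders. The relation of Axl with T cell genes was 0.98 in non-responders (exact p = 0.0028) and -0.17 in responders (exact p = 0.68). Aqp1 with keratinocyte genes was not called without responder 5 (-0.65, adjusted permutation p = 0.052). Of the 72 relations, 1 with the pigment list passed on both coefficients, that of Axl.

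**Figure D4:**
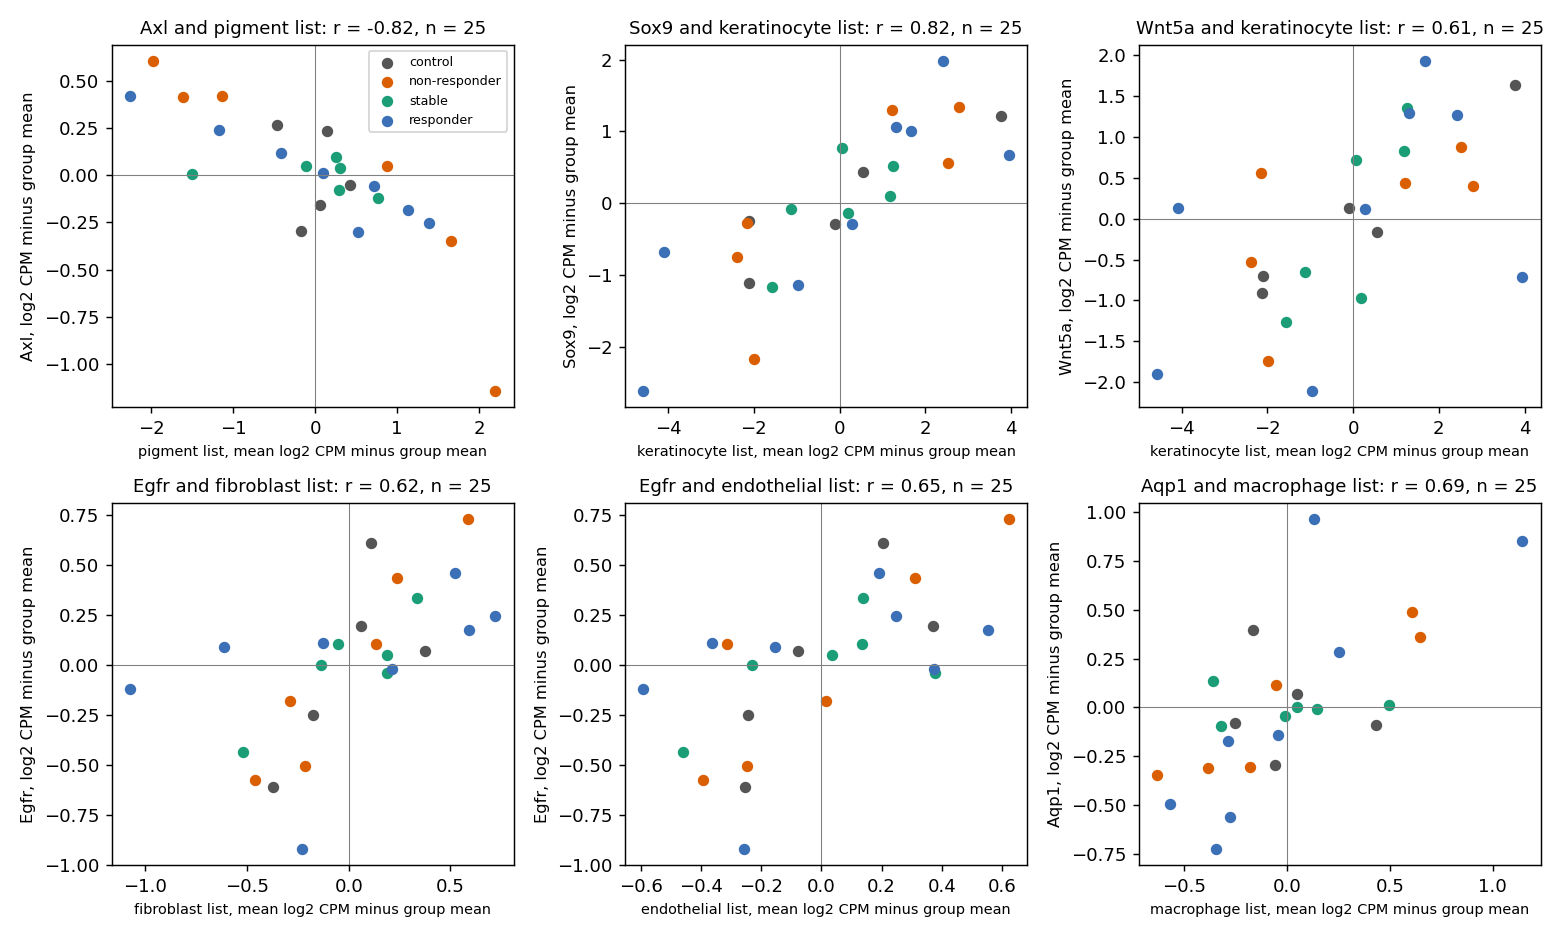
Log2 CPM of a gene minus its group mean against the mean log2 CPM of a marker list minus its group mean, 1 point per tumour (n = 25), for the 6 relations past the threshold on both coefficients. Axl falls as the pigment list rises (r = -0.82), while the other 5 panels rise, with r from 0.61 to 0.82.

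The genes whose log2 CPM followed a member most closely over all 25 tumours, group differences included, are given as a description with no test. Axl went with Pdgfb (r = 0.98), a platelet-derived growth factor chain, and Nrp2 (0.96), a semaphorin and VEGF co-receptor. Ngfr went with Gas7 (0.90) and the adhesion gene Cadm2 (0.89). Egfr went with Ror1 (0.93) and Hdgfl3 (0.90), Gfra2 with the nuclear receptor gene Nr2f2 (0.90) and Mmp15 (0.90), and Aqp1 with the heparan sulphate proteoglycan gene Sdc2 (0.94) and Plac9b (0.93). Sox9 went with Cdc42bpg (0.87) and the Notch ligand Jag2 (0.87), and Wnt5a with Cybrd1 (0.91) and Lrrc15 (0.91). For Rxrg the closest genes, Fam120aos (0.61) and Kit (0.59), were much less alike. Pdgfb was higher than in controls in responders (log2 fold change 1.60, adjusted p = 7.2e-07), stable tumours (1.59, adjusted p = 2.5e-06) and non-responders (1.14, adjusted p = 0.00073), as was Nrp2 (1.47, 1.72 and 1.05, adjusted p = 1.1e-06, 9.6e-07 and 0.00096).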

How the data were processed

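RNA of 25 tumours was measured, with 1 library each. The authors deposited expected counts per gene (estimated counts, not normalized, 5.64% of them not whole), rounded here before any count model, and RPKM values, whose gene lengths and denominators the labels and file headers do not state. The submitters' processing notes list bcl2fastq 2.17, Trimmomatic, STAR 2.5.1, RSEM 1.2.22 and mm10. The labels give both a stranded total RNA kit and polyA RNA as molecule, which was not resolved. Positions come from GENCODE M21 (GRCm38), which held all 55450 identifiers. Promoter windows came from RefSeq (GRCm38.p6); Sox9, Wnt5a and Gfra2 had none.

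edgeR 4.0.16 (R 4.3.3) was run on 18031 genes after filterByExpr, with TMM scaling, 4 group means over 25 tumours and robust quasi-likelihood F tests for 6 contrasts, two-sided, with Benjamini-Hochberg adjustment over all tested genes. CPM are counts per M TMM-scaled counts, in log2 with a prior count of 2. The script was tested on simulated data with known changes. It recovered 49 to 54% of 2-fold and 74 to 84% of 4-fold changes, with 0 to 3% false calls. An uncalled difference near 2-fold is therefore no evidence of an equal level. Replicate pairs differed by more than sampling noise (smallest chi-square per gene 16.1). Replicates were numbered in record order and pair no tumours. Alternatives were DESeq2 1.42.0, limma 3.58.1 on log2(RPKM + 1) or log2(RPKM + 0.1), RLE factors, no filter or a stricter one (at least 1 CPM in 8 libraries, with mean counts of 50), protein-coding genes only, the protein-coding share as a covariate, only the groups compared, a 2-fold minimum, a prior count of 0.5 and leaving out each tumour. The log2 share as a covariate and leaving out responders 1 and 4 were added after seeing the data.

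The members and gene lists were chosen with earlier results of these data known. Named beside the 8 members were Mitf, Tyr, Dct, Mlana, Pmel, Gas6, Pros1, the 2 called genes of each list with the highest and the 2 with the lowest responder minus non-responder change (mean of at least 1 CPM), and the 2 genes closest to each member over the tumours. Ror2, Sort1, Gdnf, Tfap2a, Ret, Nrtn, Rxra, Egfros, Gm2670 and the genes listed by name within a count were named after their values were seen. Skeletal muscle genes, the last list, were higher in 0 and lower in 3 of 10 in responders against non-responders.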

Additional observations from a re-analysis of the deposited data

Results flagged for a closer look

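Each of the 36 combinations of 1 group with 1 member or with the ratio of Axl to Mitf was checked for a tumour far from the rest of its group. The check found 5, all of them members and all above the rest of their group. Chance marks about 1 in 20 groups if values are normally distributed. The members were checked on CPM and not on log2 CPM, where high values stand out less, so the 5 cannot be read against that rate. Ngfr was at 85.98 CPM in stable 5, where the other stable tumours had 42.9 to 55.8, and at 119.5 CPM in responder 3, where the others had 37.3 to 69.3. Wnt5a was at 11.66 CPM in control 3, against 1.91 to 4.05 in the other controls. Rxrg was at 5.573 CPM in non-responder 2, against 0.043 to 0.892. Gfra2 was at 27.27 CPM in control 2, against 12.7 to 16.2.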

How the results depend on the processing

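No paired analysis was possible because the replicate numbers follow record order and the labels pair no tumours. Genes called in responder minus non-responder fell from 8823 to 1810 with the protein-coding share in the model, 4627 with its log2 and 326 at a 2-fold minimum. In responder minus stable 6891 became 0, 322 and 0, and 4018 without responders 1 and 4. At a 2-fold minimum the counts were 24 of 2693 in stable minus non-responder, and 3455, 2034 and 210 in responder, stable and non-responder minus control (from 11723, 7531 and 2500). When the fit held no other groups, non-responder minus control gave 1559. Leaving out 1 tumour gave 1470 to 3804 calls in stable minus non-responder and 1570 to 4237 in non-responder minus control.

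Members called in responder minus non-responder went from 1 to 0 under either covariate or the 2-fold minimum and to 2 in DESeq2 and limma on log2(RPKM + 1) (1 to 3 on leaving out 1 tumour). In responder minus stable, 1 became 0 under those settings and without responders 1 and 4, and 2 in DESeq2 and both limma settings (1 to 2). In stable minus non-responder, 1 became 0 at 2-fold and in the groups-only fit (0 to 2). Against controls, 3, 5 and 3 became 1, 1 and 0 at 2-fold, and non-responders had 1 in the groups-only fit (1 to 3). The 12 relations past the threshold became 6 on log2(RPKM + 1) (6 to 13).

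Reversed signs were all in differences that were not called. In responder minus non-responder, Aqp1 was 0.34 and 0.19 under the share and its log2 as covariates and 0.045 without responders 1 and 4, Sox9 was -0.62 and -0.19 under the covariates, and Ngfr ran from -0.13 to 0.30 on leaving out 1 tumour. In responder minus stable, Ngfr was 0.059 with the stricter filter, 0.32 and 0.21 under the covariates, 0.084 without responders 1 and 4, 0.033 on protein-coding genes, 0.016 in the groups-only fit and 0.028, 0.027 and 0.028 in limma (-0.30 to 0.14). There Axl was 0.019 in the 3 limma settings, Wnt5a -0.069 under the share, Rxrg 0.0065 in unfiltered limma, Mitf 0.080, 0.083 and 0.080 in limma, Mlana 0.0071 and 0.020 under the covariates (-0.54 to 0.13), and the Axl to Mitf ratio -0.061 on log2(RPKM + 1) (-0.11 to 0.11). In stable minus non-responder, Ngfr ran from -0.0065 to 0.32 and Rxrg from -1.67 to 0.23. In responder minus control, Sox9 was -1.27 and -0.82 under the covariates and -0.39 without responders 1 and 4 (-0.18 to 0.63). In stable minus control, Rxrg was 0.016 without responders 1 and 4 (-0.21 to 0.23). In non-responder minus control, Wnt5a was -0.032 with no filter (-0.12 to 0.76) and Rxrg ran from -0.24 to 1.66. With the pigment list, Egfr was -0.060 and Wnt5a -0.053 on log2(RPKM + 1) (-0.24 to 0.22 and -0.055 to 0.23), and Gfra2 ran from -0.044 to 0.28. The cause of these changes was not tested. Rxrg was under 1 CPM in all but 2 of the 25 tumours, which limits its precision.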
